A study of Mus musculus with 8 samples.

Results

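Amino acid transporter genes are described here in mouse blood progenitor cells in which Pcgf1 was knocked down. The members were all genes whose symbol opens with Slc1a, Slc3a, Slc6a, Slc7a, Slc36a, Slc38a or Slc43a and a number. The array carried 61 such genes, with 88 probes, among 32970 genes and transcripts in all. Of the 61 genes 37 were well above background on every array of 1 group or of both and were tested, and 24 did not. The 37 include Slc7a6os, which matched by symbol only and encodes no transporter.

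Amino acids cross membranes only through carrier proteins, which differ in the amino acids they accept and in what drives them. Members of the Slc1 and Slc38 families use the sodium gradient or exchange 1 amino acid for another, Slc36 carriers move amino acids with protons, and Slc43 carriers allow facilitated diffusion. Most light chains of the Slc7 family reach the cell surface only when joined to a heavy chain encoded by Slc3a2 or Slc3a1. The Slc6 family holds carriers for amino acids and also those for neurotransmitters, taurine, betaine and creatine. In dividing blood cells these carriers supply leucine and glutamine for growth, cystine for glutathione and glycine for haem.

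Messenger RNA was profiled on 8 single-colour whole mouse genome arrays. Lineage-depleted bone marrow cells (haematopoietic stem and progenitor cells) of 4 Runx1 Δ/Δ mice on a mixed C57Bl/6 and 129SvJ background were cultured for 2 days with SCF, Flt3 ligand, IL-11 and IL-3. From every mouse 1 culture then received a retroviral Pcgf1 shRNA and 1 a control shRNA, giving 4 arrays per group, and puromycin at 5 µg/ml was applied for 36 h to select transduced cells. All 8 cultures thus carry the Runx1 deletion, which removes a subunit of the transcription factor core binding factor, and cells with intact Runx1 were not analysed here. Pcgf1 encodes a subunit of the Polycomb complex PRC1.1, which ubiquitinates histone H2A. The animals' ages are not given in the sources used here.

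Signals are log2 values set so that the 75th percentile of each array is 0, so a value of 1 is a signal 2 times that percentile. On the arrays 54.8% to 62.0% of 43379 spots were well above background and 0 spots were saturated. Precision is limited throughout by the number of arrays. Pcgf1 itself averaged −1.59 ± 0.17 with the Pcgf1 shRNA and −0.23 ± 0.18 with the control shRNA (SD, n = 4 each), so 39.0% of its transcript was left (limma adjusted p 0.0197, or 0.0139 with mouse as a block). Both arrays of mouse 4 lay apart from the others, at −38.3 (Pcgf1 shRNA) and −44.8 (control shRNA) on the first principal component, against −2.95 to 30.1 for the other 6 arrays. Of the cell type marker lists, the stem and progenitor list had 11 of 12 genes tested and a median log2 change of −0.03, and its defining members Kit and Cd34 were above background on all 8 arrays. Its members differed: Cd34 rose by 0.94 (adjusted p 0.0251, or 0.0149 with the block), and with the block Meis1 rose by 0.79 (adjusted p 0.297, or 0.0318 with the block) and Ly6a fell by 0.68 (0.266, or 0.0285). All 10 tested erythroid markers read lower with the Pcgf1 shRNA (median −0.80), as did 6 of the 8 neutrophil markers above background on all 8 arrays (median −1.44), 9 of 9 monocyte and macrophage markers (median −0.48), 8 of 11 mast cell and basophil markers (median −0.64) and 7 of 11 megakaryocyte markers (median −0.22). Without a block 0 erythroid, 0 monocyte and macrophage and 0 megakaryocyte markers passed, and with the block 3, 3 and 0 did. Of the mast cell and basophil markers 2 passed as lower without a block and 4 with it. Of the 10 tested neutrophil markers 2 passed as lower without a block, Ngp and Fpr1, and 7 did with it. The 7 include Ngp and Ltf, which were kept through the control arrays, so the filter favours their direction. Fpr1 fell by −2.53 (adjusted p 0.0471, or 0.0149 with the block). Only Cxcr2 passed as higher, with the block, by 0.54 (adjusted p 0.436, or 0.0194 with the block). The neutrophil genes Ngp and Ltf were not well above background on any Pcgf1 shRNA array and were at least 3.38-fold and 5.10-fold lower there, measured against the lowest signals called above background. The B cell markers Pax5, Ebf1, Ms4a1 and Blk and 6 T and NK cell markers were above background on 0 arrays. On all 8 arrays 4 B cell markers (1 higher, 3 lower) and 5 T and NK cell markers (2 higher, 3 lower) were above background. Lck rose by 0.91 (adjusted p 0.0339, or 0.0291 with the block). With the block Thy1 rose by 0.88 (0.168, or 0.0233) and Mzb1 fell by −1.02 (0.0569, or 0.0438). Pou2af1, above background on 2 Pcgf1 shRNA and 4 control arrays, read lower by −1.08, a direction that the filter favours. Fewer cells of a type and less RNA per cell cannot be told apart in bulk RNA.

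The question for the transporters was which of them change when Pcgf1 is reduced. Without a block, 0 of the 37 tested genes passed at an adjusted p of 0.05 (limma, Benjamini-Hochberg over 17301 genes), beside 0.763% of all genes tested, 0.595% higher and 0.168% lower. At an unadjusted p under 0.05 the count was 8 of 37 genes, 2 of them higher and 6 lower, where 12.2% of all genes stood (2103 of 17301). Of the 8 genes 7 were above background on all 8 arrays. With mouse as a block, which sets each culture against the other culture of the same animal, 3 of 37 passed (8.11%, beside 5.32% of all genes). Slc1a4, an exchanger of alanine, serine and cysteine, rose by this test. Slc6a12, the betaine and GABA carrier, and Slc38a9, a lysosomal arginine-sensing carrier, fell. By direction, 1 of 37 rose (2.91% of all genes did) and 2 of 37 fell (2.42% of all genes). At an unadjusted p under 0.05 the blocked fit had 17 of 37 genes, 4 higher and 13 lower, beside 23.5% of all genes (4069 of 17301). Of the 17 genes 15 were above background on all 8 arrays. Shares of all genes by direction were not counted at an unadjusted p.

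Of the 37 genes 6 passed the filter on dim probes through 1 group and read higher in that group, so directions are counted over the 31 genes above background on all 8 arrays. Of these 13 had a higher mean with the Pcgf1 shRNA and 18 a lower mean, and their median log2 change was −0.16, beside 0.00 for all genes above background on all 8 arrays. In size, 16 of the 37 log2 changes were under 0.2 in either direction, 25 were under 0.5, and 1 reached 1 or more. Over all genes tested the 25th and 75th percentiles of the log2 change were −0.14 and 0.11. The 5th and 95th percentiles were −0.53 and 0.38. The 2 cultures of a mouse differed in the same direction in all 4 mice for 19 of the 31 genes, 7 higher and 12 lower (61.3%, beside 31.7% of all genes above background on all 8 arrays, 15.6% higher and 16.1% lower). The spread between animals was wide in relation to these changes, and for 24 of those 31 genes the range over the control cultures exceeded the change. The median range over control cultures was 0.54. Within mice the median differences of the 31 genes were −0.03, −0.18, −0.20 and −0.05 in mice 1 to 4, against 0.04, 0.00, 0.01 and −0.05 for all genes above background on all 8 arrays. Only Slc6a12 and Slc38a9 gave groups that did not overlap, both lower with the Pcgf1 shRNA; groups failed to overlap for 7.16% of all genes, 4.25% higher and 2.91% lower.

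**Figure D1:**
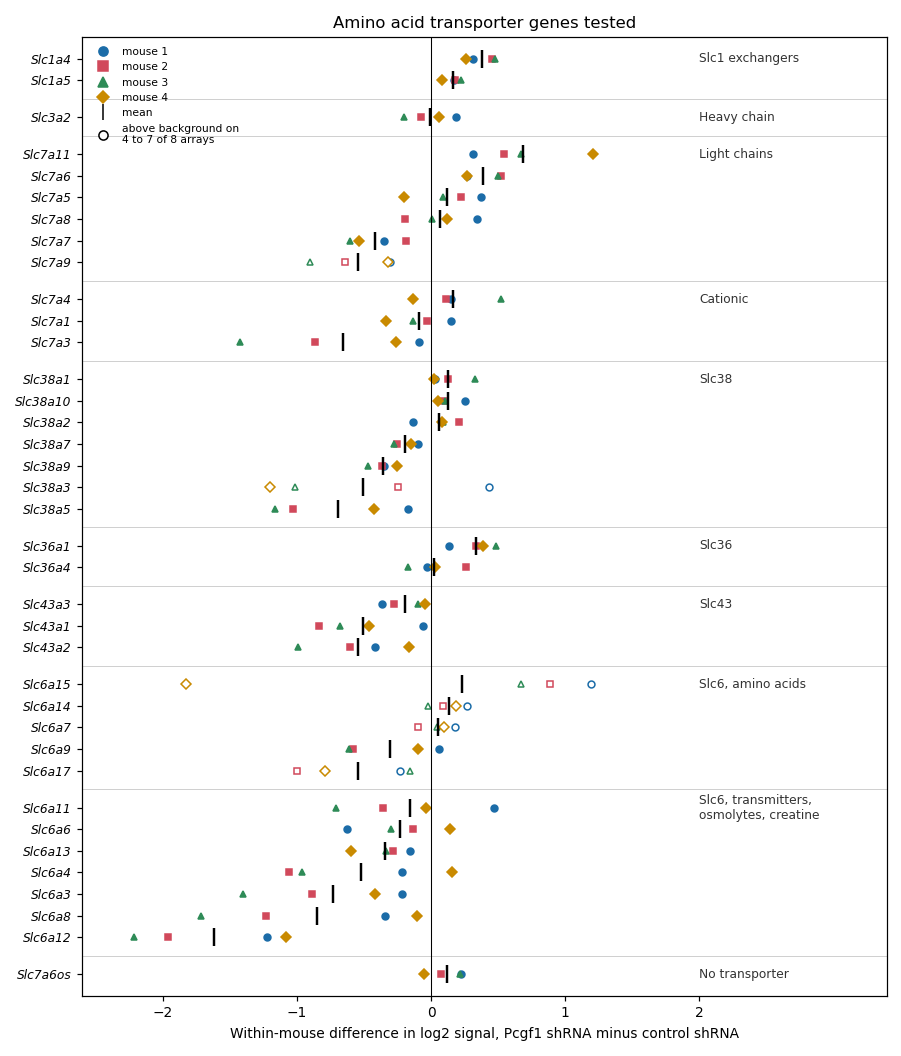
Within-mouse difference in log2 signal (horizontal axis, Pcgf1 shRNA minus control shRNA) of the 37 tested genes, grouped by role, with 1 point per mouse, a bar at the mean, and open symbols for the 6 genes above background on 4 to 7 of the 8 arrays. Slc6a12 is farthest to the left at a mean of −1.62, and Slc7a11 has the highest mean, 0.68.

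The Slc6 carriers for transmitters and osmolytes held the largest change. All 7 tested genes of the group read lower with the Pcgf1 shRNA, with a median log2 change of −0.52, and 1 of them passed with the block. Slc6a12 had signals of −2.74, −3.27, −3.70 and −3.52 in the Pcgf1 shRNA cultures of mice 1 to 4, against −1.51, −1.31, −1.49 and −2.44 in the control cultures. Each Pcgf1 shRNA culture lay below every control culture, and the within-mouse differences ran from −2.21 to −1.08. The log2 change was −1.62 (SE 0.29, 95% interval −2.27 to −0.96), so the signal with the Pcgf1 shRNA was 0.326 times that with the control shRNA. Its adjusted p was 0.0505 without a block and 0.0205 with mouse as a block. The change was −1.59 for the pair of animals on the first slide (mice 1 and 2) and −1.65 for the pair on the second, and with slide as a block the adjusted p was 0.0290. In the blocked fit the call held without mouse 3 (adjusted p 0.0314) and was lost without mouse 1, 2 or 4 (0.0523, 0.0954 and 0.0511). With normexp background correction the change was −0.98.

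Slc6a13, which carries GABA, betaine and taurine, is the neighbour of Slc6a12 in the RefSeq annotation of GRCm38.p6. Its signals were 1.05, 0.87, 0.87 and 0.44 with the Pcgf1 shRNA, against 1.21, 1.16, 1.20 and 1.03 with the control shRNA. It read lower in 4 of 4 mice, by a log2 change of −0.34 (SE 0.13), and only the Pcgf1 shRNA culture of mouse 1 stood above any control culture, that of mouse 4 (adjusted p 0.357, or 0.0927 with the block). The window printed below lies upstream of 1 of the 5 annotated starts of Slc6a12, from −250 to −131, and is shown because this gene had the largest change. Capitals mark TGATAA, a form of the motif of GATA factors.

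Slc6a12 (chr6:121342324-121342443, plus strand): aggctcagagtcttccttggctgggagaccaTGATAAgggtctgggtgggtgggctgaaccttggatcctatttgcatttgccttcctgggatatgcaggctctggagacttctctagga

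The creatine carrier Slc6a8 had signals of 0.06, −0.70, −2.16 and −1.71 with the Pcgf1 shRNA, against 0.40, 0.53, −0.45 and −1.61 with the control shRNA. Mice 2 and 3 gave the wide differences (−1.23 and −1.72) and mouse 4 the narrowest (−0.10), and the mean change of −0.85 (SE 0.60) did not pass (adjusted p 0.627, or 0.142 with the block). Slc6a3, the dopamine carrier, read lower by −0.73 (SE 0.43), in 4 of 4 mice, with adjusted p values of 0.558 and 0.0961. Slc6a4, the serotonin carrier of platelets, mast cells and neurons, had signals of 0.27, −0.75, −0.77 and 0.89 with the Pcgf1 shRNA, against 0.49, 0.31, 0.20 and 0.73 with the control shRNA. Mouse 4 went the other way from the other 3 animals for Slc6a4, and the mean change was −0.52 (SE 0.36, adjusted p 0.624). The taurine carrier Slc6a6 (log2 change −0.23) and the GABA carrier Slc6a11 (−0.16) were within the spread between cultures, with adjusted p values of 0.636 and 0.799.

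The Slc1 family divides into neutral exchangers, both measured here, and glutamate and aspartate carriers, of which 0 of 5 could be tested. Slc1a4 (ASCT1) had signals of −1.24, −1.43, −1.28 and −1.07 with the Pcgf1 shRNA, against −1.55, −1.89, −1.76 and −1.34 with the control shRNA. The groups overlapped, since the Pcgf1 shRNA culture of mouse 2 lay below the control culture of mouse 4, but within each of the 4 mice the Pcgf1 shRNA culture was higher, by 0.26 to 0.48. The log2 change was 0.38 (SE 0.14, 95% interval 0.07 to 0.69), a signal 1.30 times that with the control shRNA. The adjusted p was 0.312 without a block and 0.0476 with mouse as a block, and leaving out any 1 mouse ended the blocked call (0.0718 to 0.238). A second probe of the gene gave 0.25, and normexp correction gave 0.20. Slc1a5 (ASCT2), a glutamine exchanger, had signals of 4.20, 4.69, 4.71 and 4.40 with the Pcgf1 shRNA, against 4.02, 4.52, 4.49 and 4.32 with the control shRNA. It too was higher within each of the 4 mice, by 0.08 to 0.22, a mean of 0.16 (SE 0.16) that did not pass (adjusted p 0.726, or 0.215 with the block).

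Of the 10 genes of the Slc38 family on the array, which carry glutamine and other neutral amino acids with sodium, 7 were tested, and of the 6 above background on all 8 arrays 3 read higher and 3 lower. Slc38a9 had signals of −0.27, −0.18, −0.38 and 0.05 with the Pcgf1 shRNA, against 0.08, 0.19, 0.09 and 0.30 with the control shRNA. The groups did not overlap, though the highest Pcgf1 shRNA culture (mouse 4) and the lowest control culture (mouse 1) lay close. The within-mouse differences were −0.35, −0.37, −0.47 and −0.25, and the log2 change was −0.36 (SE 0.11, 95% interval −0.61 to −0.11), a signal 0.778 times that with the control shRNA. The adjusted p was 0.231 without a block and 0.0478 with mouse as a block, and leaving out any 1 mouse ended the blocked call (0.0710 to 0.229). A second probe gave −0.47, and the change was −0.36 on each slide.

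Slc38a5, a glutamine, histidine and glycine carrier, had signals of 3.14, 2.99, 1.93 and 4.05 with the Pcgf1 shRNA, against 3.32, 4.02, 3.09 and 4.47 with the control shRNA. It read lower in 4 of 4 mice, by 0.17 to 1.16 on the log2 scale, but the cultures of different mice differed more than that and the mean change of −0.70 (SE 0.46) did not pass (adjusted p 0.603, or 0.0861 with the block). Slc38a7, a lysosomal glutamine carrier, read lower in 4 of 4 mice by a mean of −0.20 (adjusted p 0.788, or 0.171 with the block). The glutamine carriers Slc38a1 (0.13) and Slc38a2 (0.06) and Slc38a10 (0.13) each had a 95% interval that spanned 0. A second probe of Slc38a1 gave 0.24 (unadjusted p 0.0120), and the gene read higher in 4 of 4 mice. Slc38a3, a carrier of glutamine and histidine above background on 3 Pcgf1 shRNA and 4 control arrays, went in opposite directions in mouse 1 (0.43) and mouse 4 (−1.20).

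The heavy chain Slc3a2 (4F2hc, CD98) had signals of 6.09, 5.79, 5.62 and 5.43 with the Pcgf1 shRNA, against 5.91, 5.86, 5.83 and 5.37 with the control shRNA. Its log2 change was −0.01 (SE 0.17), with an interval of −0.40 to 0.39, and its sign turned with quantile normalization (0.02). Slc7a5 (LAT1, the leucine importer) read 0.12 higher (interval −0.11 to 0.35) and Slc7a8 (LAT2) 0.07 higher (interval −0.30 to 0.44), with adjusted p values of 0.679 and 0.909.

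The light chains that exchange cationic for neutral amino acids, Slc7a6 (y+LAT2) and Slc7a7 (y+LAT1), read in opposite directions. Slc7a6 had signals of 1.03, 0.98, 1.13 and 0.69 with the Pcgf1 shRNA, against 0.76, 0.46, 0.63 and 0.42 with the control shRNA. It read higher in 4 of 4 mice, by a mean of 0.39 (SE 0.12, adjusted p 0.253, or 0.0537 with the block). Slc7a7 had signals of 1.16, 1.46, 1.02 and 0.89 with the Pcgf1 shRNA, against 1.50, 1.64, 1.62 and 1.42 with the control shRNA. It read lower in 4 of 4 mice, by a mean of −0.42 (SE 0.13, adjusted p 0.240, or 0.0627 with the block). In both genes the groups overlapped in 1 value of each group, and neither gene passed in either fit.

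Slc7a11 (xCT), the light chain that imports cystine in exchange for glutamate, had the highest mean change of the 37 genes. Its signals were 0.69, 0.47, 0.50 and −0.07 with the Pcgf1 shRNA, against 0.37, −0.07, −0.18 and −1.28 with the control shRNA. The Pcgf1 shRNA culture was higher in 4 of 4 mice, by 0.31, 0.54, 0.67 and 1.21, and both cultures of mouse 4 lay lowest in their group. The mean was 0.68 (SE 0.34, 95% interval −0.09 to 1.45), a signal 1.61 times that with the control shRNA, and it did not pass (adjusted p 0.474, or 0.0599 with the block). In the fit with the block the SE was 0.15 and the 95% interval 0.315 to 1.05, which is not adjusted for the number of genes. Its 3 probes gave 0.68, 0.60 and 0.43. Without mouse 4 the change was 0.51. Slc7a9 (b0,+AT), a cystine carrier of kidney and gut that pairs with Slc3a1, was above background on 3 Pcgf1 shRNA and 4 control arrays and read lower by −0.54 (SE 0.25, adjusted p 0.447), or by −0.19 with normexp correction. Slc3a1 was above background on 1 array and was not tested.

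**Figure D2:**
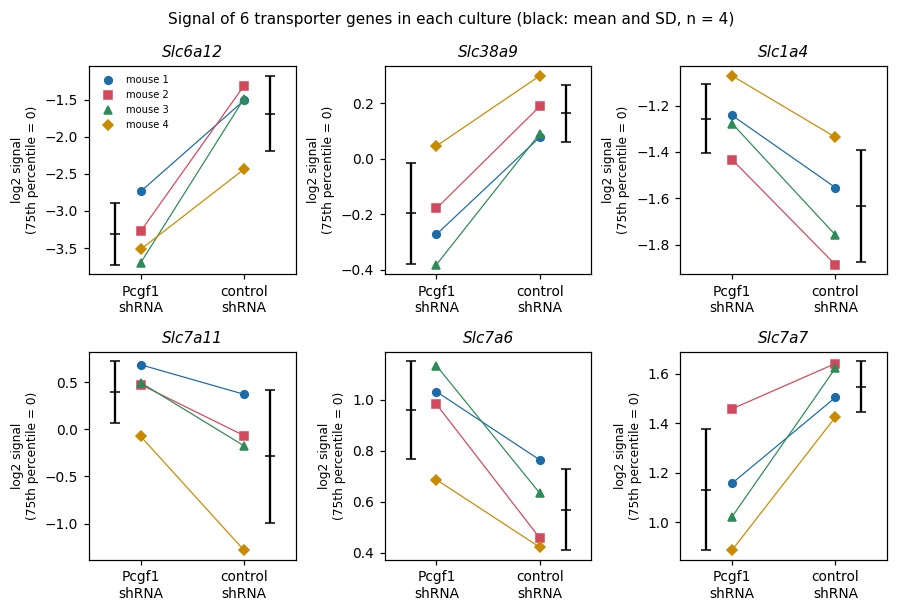
Log2 signal (vertical axis, 75th percentile of each array at 0) of 6 genes in the Pcgf1 shRNA culture and the control shRNA culture of each mouse, joined by lines, with the mean and SD of each group in black (n = 4). The lines run one way in all 4 mice for each gene, and the groups are separate for Slc6a12 and Slc38a9.

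Promoter windows from RefSeq (GRCm38.p6, from 250 bases before to 50 after a start) were found for 43 of the 61 members and 26 of the 37 tested. They were searched on both strands for TGATGNAA, the composite element that C/EBP and ATF proteins such as ATF4 bind in amino acid shortage. It was present in 4 of 64 windows of the members (6.25%), beside 3.97% of all 32851 windows, and the tested genes with it were Slc1a4, Slc7a11 and Slc7a7. Slc1a4 rose with the block and Slc7a11 read higher, while Slc7a7 read lower. The sequences are shown because these genes share the motif and differ in direction, with Slc38a9, whose stretch has no match, for comparison. All run from 5′ to 3′ on the gene's strand from −120, and capitals mark the motif on either strand. The matches open at −66 and −47 in Slc7a11, at −4 in Slc1a4 and at −1 in Slc7a7. Slc7a7 has 5 annotated starts, of which 2 have the motif in their window, and 1 of these is shown. It thus supplied 2 of the 4 member windows with the motif. A match is a description of these letters and not a measured binding site.

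Slc1a4 (chr11:20332708-20332833, minus strand): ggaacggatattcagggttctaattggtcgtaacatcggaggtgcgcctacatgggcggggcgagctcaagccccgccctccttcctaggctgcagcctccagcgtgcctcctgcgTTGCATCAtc
Slc7a11 (chr3:50443614-50443733, minus strand): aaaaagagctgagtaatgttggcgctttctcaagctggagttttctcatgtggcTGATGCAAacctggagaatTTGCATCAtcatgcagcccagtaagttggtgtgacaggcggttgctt
Slc7a7 (chr14:54417932-54418064, minus strand): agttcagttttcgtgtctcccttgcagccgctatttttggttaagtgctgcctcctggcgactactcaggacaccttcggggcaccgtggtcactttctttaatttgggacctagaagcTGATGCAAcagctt
Slc38a9 (chr13:112660646-112660765, plus strand): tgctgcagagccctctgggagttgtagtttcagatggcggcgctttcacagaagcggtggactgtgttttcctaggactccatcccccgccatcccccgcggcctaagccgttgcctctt

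AGATAA or TGATAA, forms of the GATA motif, stood in 12 of the 64 windows (18.8%, beside 18.6% of all windows), and the tested genes with it were Slc6a12, Slc7a7 and Slc7a9. CACGTG, the E-box that MYC and TFE proteins recognise and that reads the same on both strands, stood in 8 windows (12.5%, beside 7.15% of all). Its tested genes were Slc36a1, Slc38a5, Slc38a7, Slc43a1 and Slc6a3, of which Slc36a1 read higher and the other 4 lower. None of these 5 passed in either fit.

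Among carriers of lysine and arginine, 3 of 5 were tested. Slc7a3 (CAT3) had signals of −4.43, −4.84, −4.94 and −4.19 with the Pcgf1 shRNA, against −4.34, −3.98, −3.52 and −3.93 with the control shRNA. Its mean change of −0.66 (SE 0.22) came mostly from mice 2 and 3 and did not pass (adjusted p 0.265, or 0.155 with the block); with normexp correction it was −0.35. Slc7a1 (CAT1) read −0.09 (interval −0.34 to 0.16), and Slc7a4, for which no substrate is established, read 0.16. Of the proton-coupled Slc36 genes, Slc36a1 (PAT1), a carrier of small amino acids that also sits on lysosomes, was higher in 4 of 4 mice. It had signals of 0.16, 0.26, 0.43 and −0.13 with the Pcgf1 shRNA, against 0.02, −0.08, −0.05 and −0.52 with the control shRNA, a mean change of 0.34 (SE 0.16, adjusted p 0.452, or 0.0751 with the block). Slc36a4 stood at 0.02 (interval −0.27 to 0.31), and its sign turned with normexp correction (−0.02).

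The 3 Slc43 genes each read lower in 4 of 4 mice, and 0 of them passed in either fit. Slc43a1 (LAT3), which carries leucine and other large neutral amino acids, had signals of 0.57, 0.47, −0.19 and 1.48 with the Pcgf1 shRNA, against 0.63, 1.31, 0.49 and 1.94 with the control shRNA. Its mean change was −0.51 (SE 0.41, adjusted p 0.672, or 0.0917 with the block). Slc43a2 (LAT4) read lower by −0.54 (SE 0.39, adjusted p 0.631, or 0.0838 with the block). Slc43a3, a purine nucleobase carrier despite its family name, read lower by −0.20 (SE 0.11, adjusted p 0.538, or 0.228 with the block).

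Of the 10 Slc6 genes for amino acids 5 were tested, and only Slc6a9 was above background on all 8 arrays. This glycine carrier (GlyT1), which supplies glycine for haem in red cell precursors, had signals of 2.81, 2.73, 2.10 and 3.42 with the Pcgf1 shRNA, against 2.75, 3.31, 2.71 and 3.51 with the control shRNA. Mice 2 and 3 gave differences of −0.58 and −0.61 and mice 1 and 4 of 0.06 and −0.10, and the mean of −0.31 (SE 0.29) did not pass (adjusted p 0.725). Slc6a14, Slc6a15 and Slc6a7 were above background on 4 Pcgf1 shRNA and 2 control arrays and Slc6a17 on 3 Pcgf1 shRNA and 4 control arrays, so the filter favours the direction each took. Slc6a17, a carrier of synaptic vesicles, read lower by −0.54 (SE 0.20, adjusted p 0.316), or by −0.21 with normexp correction. Slc6a14 read higher by 0.13 and Slc6a7, the proline carrier, by 0.06, and both read lower with normexp correction. Slc6a15, a carrier of branched-chain amino acids and proline, turned on 1 array. Its signals were −4.99, −5.35, −5.20 and −5.15 with the Pcgf1 shRNA, against −6.19, −6.24, −5.87 and −3.33 with the control shRNA, and the control culture of mouse 4 stood far above the rest. The mean change was 0.23 (SE 0.60, adjusted p 0.918), or −0.11 with normexp correction. Without mouse 4 it was 0.92 (adjusted p 0.0368, or 0.0560 with the block). Since Slc6a15 passed the filter only through the Pcgf1 shRNA arrays, this p is not read as evidence of a rise.

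For some carriers the animals with the lowest within-mouse differences also had the lowest median differences of the erythroid markers, and of markers of some other lineages. Slc38a5, Slc43a1, Slc6a9, Slc6a8 and Slc6a3, chosen after their values were seen, had their lowest differences in mice 2 and 3. In all, 14 of the 31 genes above background on all 8 arrays did (45.2%, beside 20.9% of all such genes), among them Slc6a12, Slc43a2 and Slc7a3. For Slc38a5 the differences were −0.17, −1.03, −1.16 and −0.42 in mice 1 to 4, and for Slc43a1 they were −0.06, −0.84, −0.68 and −0.46. The median difference of the 10 erythroid markers was −0.31, −1.12, −1.49 and −0.44 in the same mice, and 0 of these markers were at background on every array. The summed erythroid signal, in multiples of the 75th percentile, was 53.0 to 188 with the Pcgf1 shRNA and 121 to 258 with the control shRNA. Such sums add linear signals, so the brightest gene of a list weighs most. For the erythroid list this is Hba-a1, with mean log2 signals of 6.22 (Pcgf1 shRNA) and 6.87 (control shRNA). For the monocyte list it is Lyz2, at 7.96 and 8.22. For the neutrophil list the medians over all 10 tested genes were −1.08, −1.78, −2.18 and −2.30. Those genes include Ngp and Ltf, which were not well above background on any Pcgf1 shRNA array. The order of the mice is therefore not read from these medians. The summed neutrophil signal was 12.1 to 45.6 with the Pcgf1 shRNA and 85.4 to 234 with the control shRNA, and Mmp9 and Retnlg were above background on 0 arrays. Some other lists were also lowest in mice 2 and 3, with medians in mice 1 to 4 of −0.26, −0.85, −0.55 and −0.42 for mast cell and basophil markers, −0.51, −0.53, −0.70 and −0.23 for monocyte and macrophage markers, and 0.22, −0.39, −0.81 and 0.11 for megakaryocyte markers. The stem and progenitor list was not, at −0.028, −0.009, −0.004 and 0.044. Nor were the B cell list (−0.28, −0.25, −0.54 and −0.46) and the T and NK cell list (0.17, 0.11, −0.18 and −0.07), each over 6 tested genes. Some of those genes were not above background on all 8 arrays. The summed signal of the mast cell and basophil list was 38.9 to 54.5 with the Pcgf1 shRNA and 49.4 to 71.8 with the control shRNA, and that of the monocyte list was 254 to 390 with the Pcgf1 shRNA and 298 to 452 with the control shRNA. The part of these cell types in the transporter values was not tested.

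**Figure D3:**
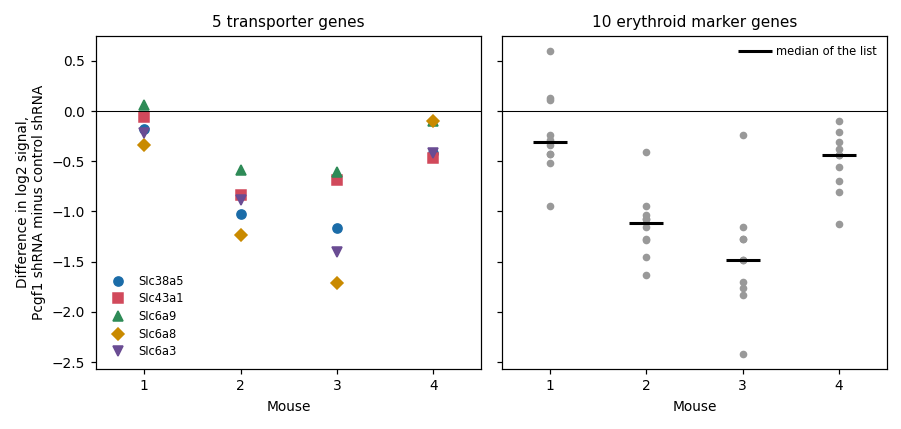
Within-mouse difference in log2 signal (vertical axis, Pcgf1 shRNA minus control shRNA) in mice 1 to 4 (horizontal axis) for 5 transporter genes on the left and 10 erythroid markers on the right, with the markers' median as a bar. Each transporter gene and the markers' median lie lowest in mice 2 and 3, while the marker Tfrc does not (−0.33, −0.41, −0.24 and −0.44). The bars stand at −0.31, −1.12, −1.49 and −0.44.

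For 13 of the 24 genes that were not tested, 0 arrays were above background. Among them were the cationic carrier Slc7a2, the light chains Slc7a10, Slc7a12, Slc7a13 and Slc7a15, the glutamate carriers Slc1a2, Slc1a3 and Slc1a7, the kidney and gut carriers Slc6a18, Slc6a19 and Slc6a20b, and Slc38a11. The other 11 were above background on 1 to 6 arrays. Slc36a3 reached 6 arrays, 3 in each group, and Slc7a14 reached 3 Pcgf1 shRNA arrays and 1 control array. Slc1a1 and Slc1a6 were each above background on 1 array of either group. Slc36a2, Slc38a4, Slc38a8 and the noradrenaline carrier Slc6a2 were so on 1 Pcgf1 shRNA array, and Slc3a1, Slc6a5 and Slc6a20a on 1 control array. No gene was above background on all 4 arrays of 1 group and on fewer than 2 of the other.

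The other genes of amino acid handling had few calls. Over 6 lists with 117 tested genes, 0 passed without a block, and 4 rose and 3 fell with mouse as a block (5.98%, beside 5.32% of all genes). Among 13 other amino acid carriers (median −0.12, 5 higher and 8 lower), Ctns, which exports cystine from lysosomes, fell with the block. Its signals were 0.93, 0.86, 0.87 and 0.51 with the Pcgf1 shRNA, against 1.41, 1.31, 1.37 and 1.05 with the control shRNA, a log2 change of −0.49 (SE 0.12, adjusted p 0.138, or 0.0212 with the block). Slc15a3, a lysosomal carrier of histidine and peptides, fell with the block by −1.28 (SE 0.29, adjusted p 0.103, or 0.0448 with the block), and Slc25a29, the mitochondrial carrier of basic amino acids, rose by 0.55 (0.264, or 0.0297). In the blocked fit, leaving out any 1 mouse ended the calls of these 3 genes.

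Among genes that use amino acids 1 rose with the block. Bcat1, the cytosolic aminotransferase of branched-chain amino acids, had signals of 1.96, 2.11, 2.85 and 1.11 with the Pcgf1 shRNA, against 0.92, 0.89, 1.94 and 0.00 with the control shRNA. The groups overlapped, since the animals differed by more than the shRNAs did, but the differences were alike in mice 1 to 4 at 1.04, 1.21, 0.91 and 1.11. The mean was 1.07 (SE 0.46, adjusted p 0.401, or 0.0139 with the block), and the blocked call was lost without mouse 2 (0.0896). The list of glutamine, leucine and arginine use had 12 genes higher and 4 lower of 16 (median 0.09).

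The amino acid shortage response, most of which ATF4 controls, had 13 genes higher and 13 lower of 26 (median 0.02). In it Stc2, a secreted glycoprotein, rose with the block by 0.45 (adjusted p 0.588, or 0.0337 with the block), and Cebpb, a partner of ATF4, fell with it by −0.35 (0.589, or 0.0483). Of 14 glutathione genes (median 0.02, 8 higher and 6 lower), Ggt5, a gamma-glutamyltransferase, rose with the block by 0.50 (0.271, or 0.0307). In the blocked fit these 3 calls were also lost without any 1 mouse. The 19 tRNA synthetase genes (median 0.03, 10 higher and 9 lower) had 0 calls in both fits, with the smallest p without a block in Aars (−0.19) and Hars (−0.15) and with the block in Farsa (0.34, adjusted p 0.142), which was named after its values were seen. The 30 genes of amino acid sensing by mTORC1 (median −0.01, 13 higher and 17 lower) also had 0 calls in both fits. Without a block the smallest p values there belonged to Rragb, a lysosomal Rag GTPase (0.66, adjusted p 0.103, or 0.0549 with the block), and Castor1, an arginine sensor (0.54, adjusted p 0.266, or 0.0684). With normexp correction these changes were 0.38 and 0.17. In the blocked fit Sesn3 (0.35, adjusted p 0.0636), named after its values were seen, came before Castor1.

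**Figure D4:**
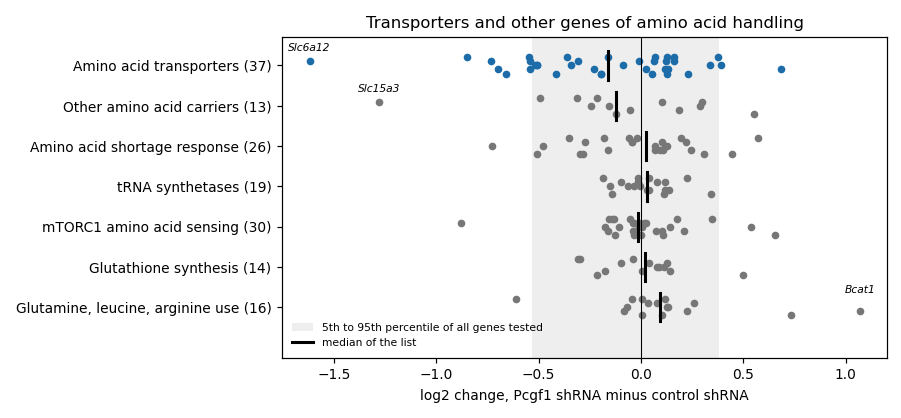
Log2 change (horizontal axis, Pcgf1 shRNA minus control shRNA) of each tested gene of the amino acid transporters and of 6 other lists, with the number of genes in brackets, a bar at each median and the 5th to 95th percentile of all genes tested in grey. The transporter median stands at −0.16 and the other medians between −0.12 and 0.09.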

How the data were processed

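Gene expression was measured in 8 cultures, 4 per group. Scans were turned into spot values by Agilent Feature Extraction 10.1, per the submitters' processing notes. Each spot's deposited intensity is background-subtracted but not normalized between arrays, per the file headers. A value table with log2 values, also deposited by the authors, was used as an alternative. Over 21595 probes its column differences followed the spot files with a lowest r of 1.00. Each probe was centred on its median, and the column medians (Pcgf1 then control shRNA) were 0.10 and 0.05, −0.05 and 0.11, −0.12 and 0.10, and −0.20 and −0.13 in mice 1 to 4.

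From the spot files, log2 intensity was shifted to a 75th percentile of 0 per array. Control spots and 242 non-uniform values were left out. A probe was kept when well above background on all 4 arrays of a group (22747 of 41174 probes). RefSeq accessions named 24375 probes, and 1528 had no match. Each gene was represented by its probe of highest mean signal. Several kept probes existed for 11 members, and in 0 of them did the direction differ. Tests used limma 3.58.1 under R 4.3.3 (two-sided, p adjusted by Benjamini-Hochberg over every gene in the fit) without a block, and with mouse as a block beside it. The labels name the same 4 mice in both groups, and same-mouse arrays correlated in their deviations from the group means at 0.41 to 0.64 across 17252 genes. Slide and scan coincided (mice 1 and 2, mice 3 and 4).

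The members, role groups and gene lists were chosen with earlier results of these data known. The naming rule took members that passed in either fit, 2 per role group with the smallest p, Slc3a2 and its light chains, members above background in 1 group only, and the called or smallest-p genes of each list. All other tested members are named so that each is accounted for, after their values were seen. Alternatives covered block, slide, background correction, normalization, probe filter, probe choice, array weights, the value table and each mouse left out. The values of 1 member are not reported here.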

Additional observations from a re-analysis of the deposited data

Results flagged for a closer look

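Among 98 groups of 4 values, those of Pcgf1 and 48 named genes, 10 held a culture far from the other 3, and each time it came from mouse 4. Chance alone puts about 1 in 20 groups past the limit used (Dixon's test, 95%). Among the transporters all were control cultures. Slc6a3 stood at −0.76 against −1.80 to −1.66 in the other control cultures, Slc6a15 at −3.33 against −6.24 to −5.87, Slc38a7 at −0.89 against −0.20 to −0.10, and Slc3a2 at 5.37 against 5.83 to 5.91. Among the other genes, the Pcgf1 shRNA culture of mouse 4 stood at 0.51 for Ctns against 0.86 to 0.93, at 0.41 for Stc2 against 1.31 to 1.48, and at 2.32 for Cebpb against 3.04 to 3.11. Its control culture stood at −0.085 for Slc15a3 against 0.76 to 0.83, at 2.76 for Cebpb against 3.36 to 3.47, and at −2.72 for Rragb against −3.18 to −3.12.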

How the results depend on the processing

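Without a block 0 transporter genes passed, and this count was also 0 with normexp correction, quantile normalization, no filter on dim probes (61 genes), the mean of all kept probes, the authors' value table and without Slc7a6os. It was 3 with the replicate block by mouse, 1 with slide as a block and 1 among genes above background on all 8 arrays. With array weights it was 5 (Slc38a9, Slc6a12, Slc6a13, Slc7a3 and Slc7a6). Leaving out 1 mouse gave 0 to 2, or with the replicate block 0 to 1. The 2 came without mouse 4 and were Slc6a12 and Slc6a15, the latter kept by the filter only through the Pcgf1 shRNA arrays. Over all genes the count of 132 became 921 with the replicate block, 77 with normexp, 1652 with array weights, and 0 with no filter, where more genes were tested (2199 at an unadjusted p under 0.05); leaving out 1 mouse gave 0 to 363 (the highest without mouse 4), or 0, 145, 284 and 306 with the block. Of the other pathway genes 7 passed with the replicate block and 12 with array weights, and 0 to 3, or 0 to 1 with the block, when 1 mouse was left out. The median of the 31 transporters above background on all 8 arrays moved to −0.055 with quantile normalization, with 14 higher and 17 lower. With normexp it was −0.12, with 12 higher and 19 lower. The 7 transmitter and osmolyte genes and the 3 Slc43 genes all read lower under these scalings, the value table and array weights. The Pcgf1 change was −1.36 with no filter on dim probes but did not pass (adjusted p 0.104); leaving out 1 mouse gave −1.38 to −1.34, with no call without mouse 1, 2 or 3, and with the replicate block no call without mouse 2 (adjusted p 0.0897). Of 810 values of 48 named genes under the alternatives, 761 kept direction and call, 32 passed in addition and 17 changed sign, all of the 17 without a call. With normexp the sign turned for Slc6a15 (−0.11), Slc6a7 (−0.10), Slc36a4 (−0.015) and Slc6a14 (−0.054), and with quantile normalization for Slc3a2 (0.025). Leaving out 1 mouse, with or without the block, gave a range that crossed 0 for Slc6a15 (−0.090 to 0.92), Slc7a8 (−0.021 to 0.16), Slc36a4 (−0.057 to 0.089), Slc6a11 (−0.37 to 0.025) and Slc3a2 (−0.073 to 0.056, with 0.014 without mouse 2). The cause of these shifts was not tested.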
